A study of Mus musculus with 6 samples.

Results

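The baseline transcriptome of vehicle-treated dendritic cells grown from mouse bone marrow comprised 10066 of the 23398 genes with a value in the series (43.0%). A gene belonged to it when it reached at least 1 FPKM (fragments per kilobase of gene length, on the scale of each library's size) in each of the 3 vehicle libraries. Of the 15679 protein-coding genes in the table, 9366 met this rule (59.7%). The series holds 6 libraries, and the 3 used here came from cultures kept with vehicle for 12 hours, as the controls of cultures given calcium hydroxide nanoparticles. Per the labels, the cells were grown in DMEM with fetal bovine serum, penicillin and streptomycin. The labels name no cytokine in the medium and give no strain, sex, age or number of mice, and they do not say whether the 3 libraries came from separate cultures or animals. The spread between libraries may therefore be technical.

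Dendritic cells take up antigen, cut it in the endosome and lysosome, and show the peptides to T cells on MHC molecules. Cultures grown from bone marrow are known to hold a mixture of dendritic cells and macrophages, related myeloid types that share many surface genes, and granulocytes and their precursors can remain in them. In a resting culture the uptake receptors and the lysosome are high, while migration and costimulation genes rise on maturation.

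Below, 3 values in a row are the FPKM of vehicle libraries 1, 2 and 3, and an error is the SD over these libraries (n = 3). Each count of list genes at the threshold is to be read beside the 59.7% of all protein-coding genes that met it. The reads recovered from the values numbered 17696357, 17281945 and 18218550 per library. The gene with the lowest passing value, Cyb5d2, had 122, 102 and 139 reads and a lowest value of 1.00044 FPKM, and Zfp729a was next with 1.00167 FPKM. Numbl and Raet1e fell just outside, with 0.999536 FPKM in library 3 and 0.999646 FPKM in library 1. Between 10475 and 10505 genes reached 1 FPKM in a single library, and mitochondrially encoded genes took 2.34% to 2.55% of the recovered reads. Library 1 stood somewhat apart from the others. Among 5666 protein-coding members with a mean of 5 FPKM or more, library 1 was the farthest of the 3 from the mean of the other 2 in 2272 genes (40.1%), against 1674 (29.5%) for library 2 and 1720 (30.4%) for library 3. It differed from the mean of the other 2 by at least 1.5-fold in 30 of them (0.529%), whereas libraries 2 and 3 did so in 8 each (0.141%).

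Abundance was concentrated in few genes. The members had a median of 6.52 FPKM. Of the 10066, 6353 lay between 1 and 10 FPKM, 3317 between 10 and 100, 362 between 100 and 1000, and 34 at 1000 FPKM or above. Those 34 genes held 36.2% of the members' summed FPKM. The 10 most abundant genes held 22.7 ± 0.305%, and the top 100 held 47.6 ± 0.390%. The level of 50% of the sum was reached with 120, 128 and 128 genes. By recovered reads, which are not divided by gene length, the 10 genes of highest FPKM held 10.9 ± 0.269%.

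**Figure D1:**
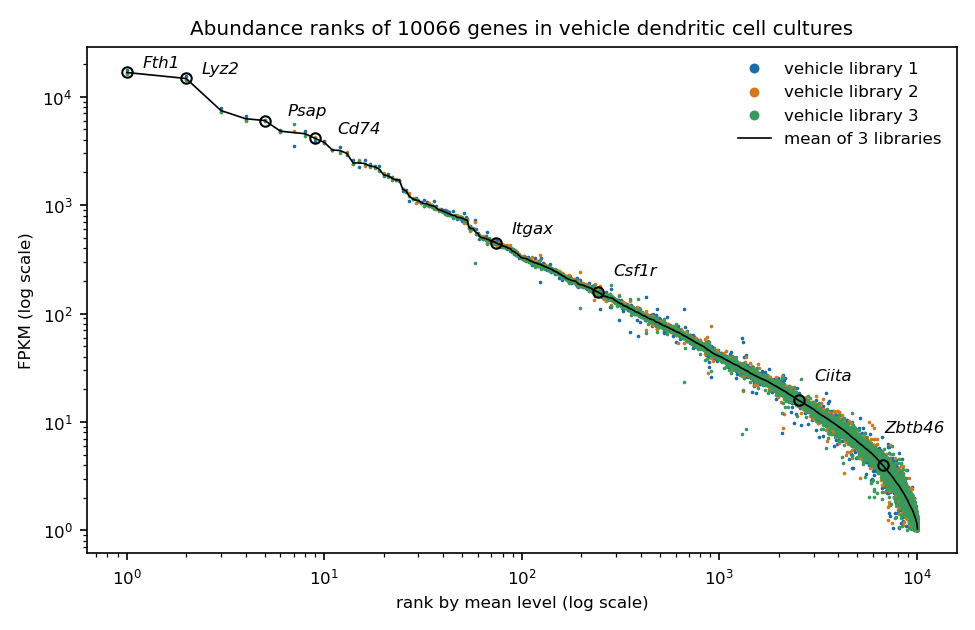
FPKM of the 10066 genes in each vehicle library (points, 1 colour per library) and their mean (line) against rank by mean, both axes logarithmic, with named genes circled. The line falls from Fth1 and Lyz2 above 10000 FPKM to the threshold of 1 FPKM, and the libraries scatter most at the low end.

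The most abundant transcript was Fth1, the heavy chain of the iron store ferritin (chromosome 19, 9980598 to 9985098 on GRCm38), at 17589.5, 16432 and 16050.1 FPKM. Its level rests on an effective length of 866 bases recovered from the values, where the merged exons of the annotation give 3469. Lyz2, the lysozyme gene of myeloid cells (chromosome 10, 117277331 to 117282321), came second at 15503, 14297 and 14288 FPKM, and library 1 was the highest for both. The third, Spp1, encodes the secreted phosphoprotein osteopontin and lay at 7919, 7229.8 and 7188 FPKM. Psap, the precursor of the saposins that activate lysosomal lipid breakdown, followed mt-Co1 at 6139.9, 5968 and 5958 FPKM. Ccl6, a chemokine of myeloid cells, had 4974, 4744 and 4689 FPKM. The other genes of the top 20 with a known protein were Wfdc17 (4549 ± 213 FPKM), the invariant chain gene Cd74 (4116 ± 189.8), the ferritin light chain gene Ftl1 (3789.7 ± 110.0), the actin-binding peptide gene Tmsb4x (3216 ± 14.1), the cathepsin gene Ctss (3188 ± 187), the galectin gene Lgals3 (2999 ± 109), the mitochondrial genes mt-Nd1 (2447 ± 122) and mt-Cytb (2419 ± 153), the chemokine gene Ccl17 (2445.5 ± 184), the cathepsin gene Ctsd (2294 ± 77.3), the macrophage elastase gene Mmp12 (2258 ± 46.1), the MHC class I light chain gene B2m (2143 ± 126) and the actin gene Actb (1898 ± 57.9). Rank 7 was Gm23935, a 57-base gene annotated as a miRNA, at 3509, 4833 and 5629 FPKM. It had 3985, 5461 and 6699 reads, far fewer than its neighbours in rank, since FPKM divides by length.

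The pair of mouse lysozyme genes differed widely in level. Lyz2 and its neighbour Lyz1 start 10596 bases apart on chromosome 10, and Lyz1 reached 1.99, 1.04 and 1.1 FPKM (50, 26 and 29 reads). Lyz2 was thus 7802, 13768 and 12992 times as high as Lyz1 in the 3 libraries, and the lower ratio of library 1 came with the highest value of Lyz1. Because their exons are similar, reads of one gene may be counted for the other. The 130 bases before each start are shown because they are nearly the same in both genes: 120 of 130 positions were identical (92.3%), and capitals mark the positions that differ. Both lie on the minus strand of GRCm38.p6 and are taken from RefSeq, with Lyz2 at chr10:117282273-117282402 and Lyz1 at chr10:117292869-117292998, printed 5′ to 3′.
Lyz2: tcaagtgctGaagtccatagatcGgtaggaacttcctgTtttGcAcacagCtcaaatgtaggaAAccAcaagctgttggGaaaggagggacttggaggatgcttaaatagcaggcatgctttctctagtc
Lyz1: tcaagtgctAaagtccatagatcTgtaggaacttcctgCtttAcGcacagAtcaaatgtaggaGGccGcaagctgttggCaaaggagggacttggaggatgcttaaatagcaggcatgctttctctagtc
Over the 250 bases before each start, 152 positions were identical (60.8%) when aligned without gaps. An insertion or deletion would shift such an alignment, so it cannot show whether the pair differs farther upstream.

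The given markers of the culture, Lyz2, Cd74, Itgax and Csf1r, were all above 100 FPKM. Itgax, the integrin chain CD11c, a usual but not exclusive marker of dendritic cells in flow cytometry, lay at 456, 442 and 448 FPKM. Csf1r, the receptor of macrophage colony-stimulating factor, lay at 158, 159 and 159 FPKM, and its CV (SD as a percent of the mean) of 0.246% was the lowest among the members on the receptor lists. Of 10 conventional dendritic cell markers, 8 were at 1 FPKM or more in all 3 libraries (80%), against 59.7% of protein-coding genes. Zbtb46, the transcription factor that marks the conventional lineage, had 3.66, 4.1 and 4.15 FPKM. Kmo and Haao, enzymes of tryptophan breakdown, were of the same order, at 5.69 ± 0.968 and 6.61 ± 0.909 FPKM. Flt3, the receptor of the cytokine that drives conventional dendritic cell growth, had 1 read in library 3 and none in the others, where 3 reads would give 0.0245 FPKM. Dpp4, a surface peptidase of the type 1 subset, lay across the threshold at 0.969, 1.14 and 0.864 FPKM.

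Of 11 type 1 dendritic cell markers with a value, 7 met the threshold (63.6%, near the 59.7% of protein-coding genes), and none exceeded 20 FPKM. Wdfy4, needed for cross-presentation, was the highest at 17.8, 19.6 and 19.6 FPKM. The factor Batf3, which the subset needs, had 9.15, 9.0 and 8.55 FPKM. Its partner Irf8 had 8.82, 8.75 and 8.47 FPKM, and the libraries of the pair overlapped. Clec9a, the receptor for dead cells, had 6.69, 6.74 and 6.33 FPKM. Xcr1, the chemokine receptor of that subset, rested on 8, 16 and 15 reads, and Cd8a on 1, 3 and 5 reads. Ly75, Itgae and Tlr3 lay between these extremes, at 3.6, 2.55 and 1.85 FPKM on average.

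Markers of type 2 and monocyte-derived dendritic cells passed in 11 of 12 cases and reached much higher levels. Ccl17, a chemokine that draws T cells, had 2235, 2579 and 2523 FPKM. Mgl2, a lectin gene of this subset, had 213, 246 and 237 FPKM. Ccl22, which acts on the same receptor as Ccl17, had 110.4, 178 and 173 FPKM. In each of these 3 genes library 1 was the lowest. Irf4, the factor of this subset, had 32, 36.1 and 35 FPKM and was 3.96 ± 0.294 times as high as Irf8. Sirpa, a phagocytosis checkpoint gene, had 206, 199 and 191 FPKM, and here library 1 was the highest. Klf4 (17.9 ± 0.487 FPKM), another factor of the subset, and Cd209a (5.69 ± 0.523 FPKM), the mouse relative of DC-SIGN, were lower. Esam, a marker of the splenic type 2 cell, was the single gene of the list to miss the threshold and rested on 6, 12 and 3 reads.

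Macrophage markers met the threshold in 13 of 17 cases. After Lyz2, Cd68, an endosomal glycoprotein, had 300.1, 304 and 294 FPKM. Msr1, a scavenger receptor for modified lipoproteins, had 112, 100.0 and 107 FPKM. Adgre1, which encodes F4/80, had 62.9, 68.3 and 66.9 FPKM, with library 1 the lowest. Mrc1, the mannose receptor, had 62.8, 51.8 and 54.3 FPKM, with library 1 the highest. Mertk, a receptor for dying cells that marks macrophages over dendritic cells in tissues, had 24.8, 22.2 and 22.9 FPKM. The 4 genes below the threshold are markers of resident tissue macrophages: Cd163 at 0.286 ± 0.0561, Cx3cr1 at 0.118 ± 0.0736, Vsig4 at 0.0227 and Timd4 at 0.00774 FPKM. Since the libraries are of whole cultures, fewer cells of a type and less RNA per cell cannot be told apart.

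Genes of osteoclasts, which form by fusion of macrophage precursors, met the threshold in 6 of 8 cases. Atp6v0d2, a proton pump subunit needed for fusion, had 286, 282 and 285 FPKM. Dcstamp, a fusion receptor, had 169, 158 and 157 FPKM. Its relative Ocstamp had 54.4, 53.3 and 52.6 FPKM. The effector genes of bone resorption were lower, with the acid phosphatase gene Acp5 at 29.9 ± 2.74 and the collagenase gene Ctsk at 25 ± 1.07 FPKM. Calcr, the calcitonin receptor of mature osteoclasts, was listed at 0 in each vehicle library.

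**Figure D2:**
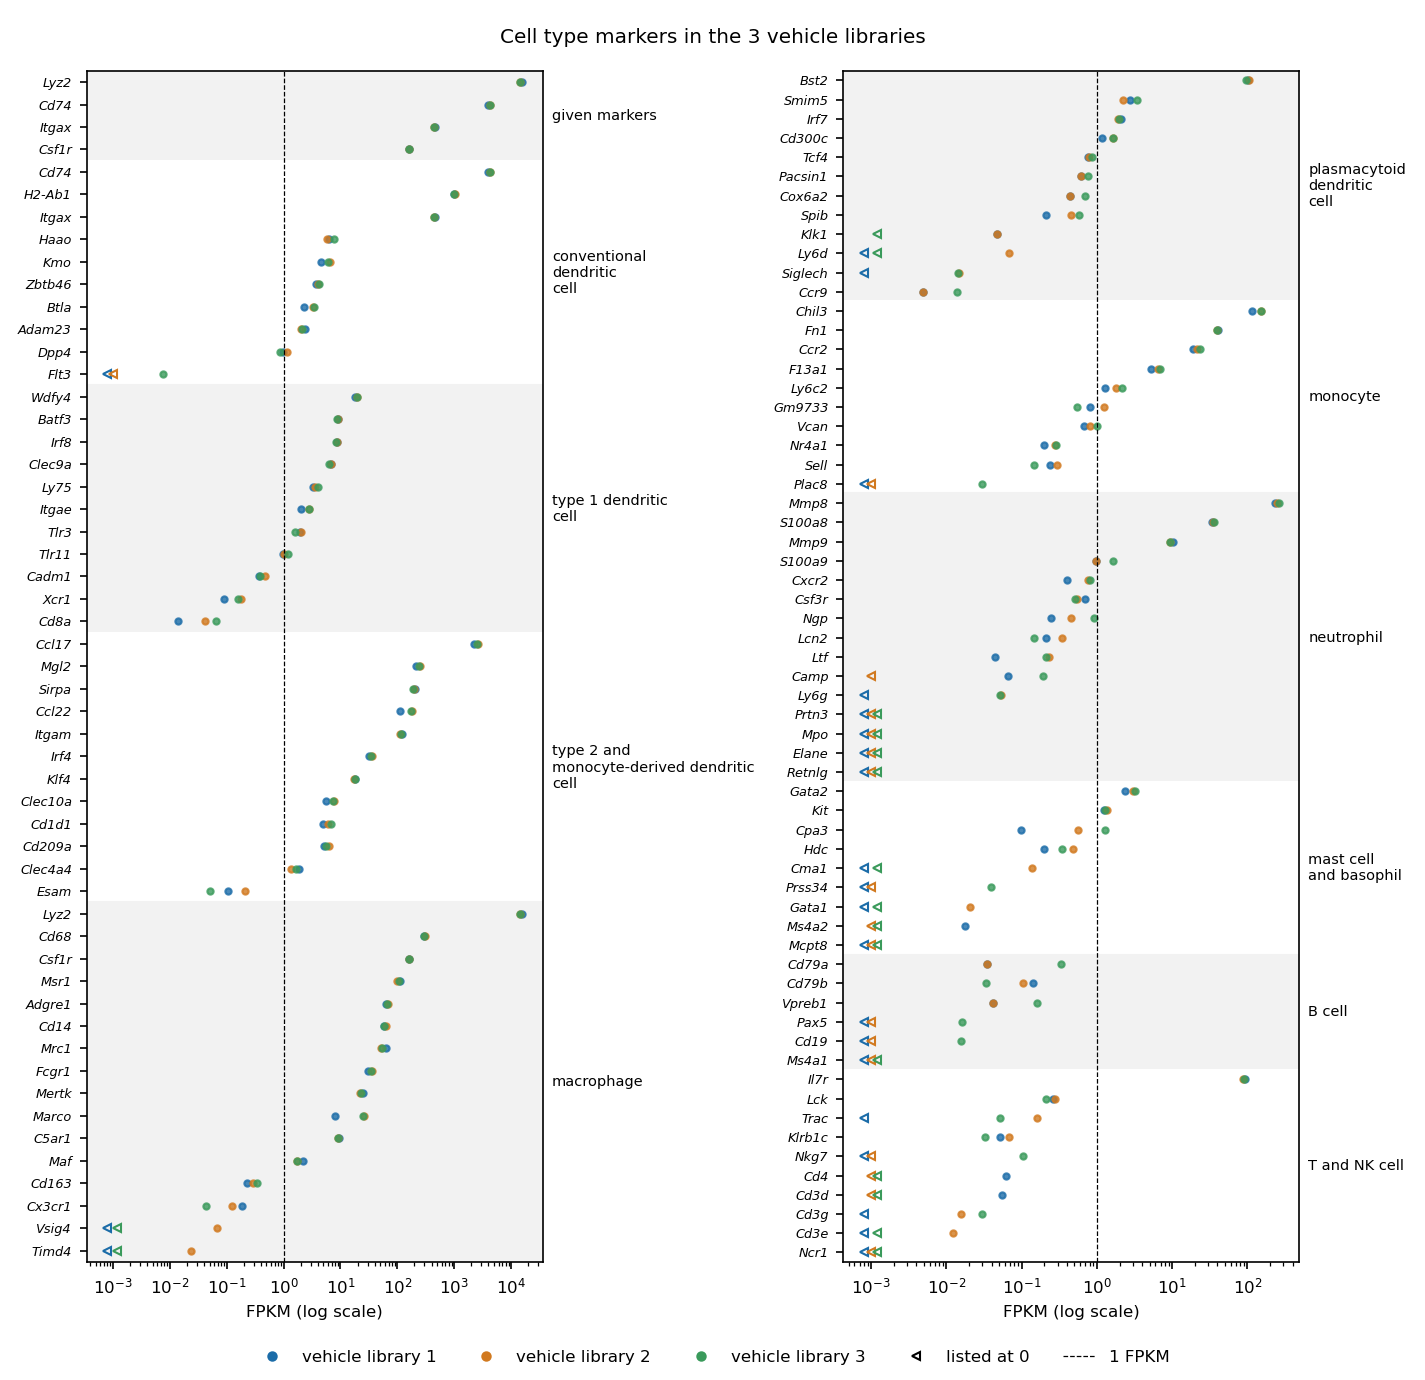
FPKM of cell type markers in each of the 3 vehicle libraries (filled points, logarithmic axis) with genes listed at 0 drawn as open triangles at the left edge and a dashed line at 1 FPKM. Dendritic cell type 2 and macrophage genes lie mostly right of the line, and most plasmacytoid, neutrophil, mast cell, B cell, T and NK cell genes lie left of it.

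Markers of other blood cells were mostly below the threshold. Of 12 plasmacytoid dendritic cell genes 4 passed, led by Bst2 (101 ± 4.29 FPKM), which interferon also induces in other cells, while the defining gene Siglech had 0, 1 and 1 reads. The 15 neutrophil genes summed to 276, 292 and 309 FPKM, of which the collagenase gene Mmp8 made up 230.2, 244 and 259 FPKM. S100a8, one chain of calprotectin, had 33.4, 35.3 and 36 FPKM. Its partner S100a9 had 0.962, 0.966 and 1.65 FPKM and did not pass. The granule enzyme genes Elane, Mpo and Prtn3 and the gene Retnlg were listed at 0 in the 3 libraries, a count that allows up to 0.154, 0.0442, 0.0874 and 0.255 FPKM at 3 reads. Of 10 monocyte genes 5 passed (50%, against 59.7% of protein-coding genes). Chil3, a chitinase-like gene, led them at 114, 153 and 152 FPKM. Ccr2, which brings monocytes out of the marrow, had 19, 21.4 and 23.5 FPKM. Ly6c2, the marker of classical monocytes, had 1.26, 1.8 and 2.15 FPKM. In these 3 genes and in F13a1 the value of library 1 was the lowest.

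Mast cell and basophil genes passed in 2 of 9 cases, the factor Gata2 (2.88 ± 0.44 FPKM) and the receptor Kit (1.28 ± 0.0622 FPKM), which progenitors share, and the basophil protease gene Mcpt8 was listed at 0. Eosinophil genes passed in 2 of 6 cases, Siglecf (8.83 ± 0.795 FPKM) and Ear6 (4.76 ± 0.318 FPKM), with the peroxidase gene Epx listed at 0. None of 6 B cell genes and none of 4 erythroid genes passed, their sums stayed below 1 FPKM in each library, and the B cell gene Ms4a1 was listed at 0. Of 10 T and NK cell genes the single one to pass was Il7r, at 92.1, 86.8 and 89.7 FPKM. The T cell receptor chains Cd3d, Cd3e and Cd3g had at most 2 reads in any library, and the NK receptor gene Ncr1 was listed at 0. Of 9 stromal and endothelial genes 2 passed, Vwf at 7.51 ± 0.252 and Lepr at 1.79 ± 0.0937 FPKM, and the collagen genes Col1a1 and Col1a2 were listed at 0. Progenitor genes passed in 3 of 6 cases (50%, against 59.7% of protein-coding genes), with Cd34 at 4.29 ± 0.344 FPKM and the stem cell factor gene Hlf listed at 0.

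Transcription factors of the myeloid line were nearly all detected, with 34 of 36 at the threshold and a median of 10.9 FPKM. Cebpb, a factor of macrophage differentiation that cytokines induce, was the highest at 145, 187 and 153 FPKM. Spi1, which encodes the lineage factor PU.1, had 161, 161 and 158 FPKM. The libraries overlapped for this pair, but their CV differed, 13.9% for Cebpb, with library 2 the highest, and 1.07% for Spi1. Id2, an inhibitor of E proteins in dendritic cells, followed at 137, 148 and 149 FPKM. Cebpa, the factor of granulocyte and monocyte progenitors, had 87.5, 81.5 and 79.7 FPKM. Bhlhe40 (64.6 ± 3.24 FPKM) and Stat6 (43.3 ± 0.612 FPKM), which carries the interleukin 4 signal, came next. Pparg, the lipid-sensing receptor of alveolar macrophages, had 7.12, 6.76 and 5.64 FPKM. The factors below the threshold were Tcf4 of plasmacytoid cells (0.809 ± 0.0566 FPKM) and Nr4a1 of patrolling monocytes (14, 19 and 21 reads).

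Receptors for growth factors and cytokines met the threshold in 30 of 33 cases. The highest were the chains of the granulocyte-macrophage colony-stimulating factor receptor. The shared beta chain Csf2rb had 356, 379 and 384 FPKM, and the alpha chain Csf2ra had 236, 225 and 221 FPKM. The mouse-specific beta chain Csf2rb2 had 198, 201 and 204 FPKM and is a close copy of Csf2rb, so their reads may be exchanged. Csf2rb was 2.35 ± 0.0898 times as high as Csf1r and 1.64 ± 0.119 times as high as Csf2ra. Crlf2, the thymic stromal lymphopoietin receptor, which forms a pair with Il7r, had 120.4, 111 and 97.4 FPKM. Of the chains that pair with the shared gamma chain Il2rg (42.3 ± 1.24 FPKM), Il21r was the highest at 99.2, 96 and 91 FPKM, near Il7r, and Il4ra had 32.8 ± 1.45 FPKM. Tnfrsf1b, the tumour necrosis factor receptor of immune cells, had 145, 135 and 141 FPKM. The widely expressed Tnfrsf1a had 55.2, 51.6 and 51.7 FPKM and did not overlap with it. Interferon receptor chains lay in a narrow band, with Ifngr1 at 23.2 ± 1.11, Ifngr2 at 23.8 ± 0.768, Ifnar1 at 15.1 ± 0.63 and Ifnar2 at 12.9 ± 0.812 FPKM, and the first 2 did not differ beyond their spread. The decoy receptor Il1r2 had 12.3, 15 and 16 FPKM. The signalling receptor Il1r1 had 1.81, 1.66 and 1.66 FPKM, below each value of the decoy. Csf3r, the granulocyte receptor, missed the threshold at 0.586 ± 0.0957 FPKM.

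Of 17 genes of Toll-like receptors and their cofactors 14 passed. Unc93b1, the chaperone that carries the nucleic acid receptors to endosomes, had 104, 97.7 and 93.8 FPKM. Cd14, the lipopolysaccharide co-receptor, had 57.7, 63.4 and 59 FPKM. Among the receptors proper, Tlr13, which senses bacterial ribosomal RNA, led at 53.4, 48.8 and 51.7 FPKM. Tlr2, for lipoproteins, followed at 25.6, 29.1 and 28.9 FPKM. Tlr4, for lipopolysaccharide, and Tlr7, for single-stranded RNA, did not differ beyond their spread, at 14.4 ± 0.749 and 14.3 ± 0.653 FPKM. Tlr8 had 11.6 ± 0.404 FPKM, and Tlr9, for CpG DNA, 2.52 ± 0.207 FPKM. Ly96, the partner of Tlr4, had 5.64 ± 0.642 FPKM. The flagellin receptor Tlr5 was among the lowest with 15, 14 and 5 reads, and Tlr12 had 8, 8 and 6.

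C-type lectins, which bind sugars of microbes, all passed (19 of 19), with a median of 24.8 FPKM. Clec4n, which encodes Dectin-2, had 1685, 1724 and 1712 FPKM and ranked 23 of all genes. Clec7a, the beta-glucan receptor Dectin-1, had 497, 482 and 496 FPKM, and Clec4n was 3.47 ± 0.0948 times as high. Clec4d, which signals with the inducible lectin Mincle, had 150.4, 146 and 144 FPKM. Clec4e, which encodes Mincle itself, had 2.54, 4.47 and 4.14 FPKM, with library 1 the lowest. Mgl2 was 33.9 ± 3.44 times as high as its close relative Clec10a (5.63, 7.62 and 7.52 FPKM). Clec4a2 (89.5 ± 1.83 FPKM) and Cd302 (53.2 ± 0.401 FPKM) lay between.

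Fc receptors, which bind antibody, passed in 6 of 6 cases with a value. The signalling chain Fcer1g had 463, 475 and 468 FPKM. The activating receptor Fcgr3 had 313, 302 and 302 FPKM. The inhibitory receptor Fcgr2b had 19.5, 22.4 and 21.7 FPKM, so Fcgr3 was 14.5 ± 1.39 times as high. The high-affinity receptor Fcgr1 lay at 33.7 ± 2.31 and Fcgr4 at 3.15 ± 0.796 FPKM.

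Integrins met the threshold in 14 of 20 cases (70%, against 59.7% of protein-coding genes). The shared beta 2 chain Itgb2, which binds every CD11 chain, had 901, 847 and 833 FPKM. Of its partners, Itgax was 3.86 ± 0.112 times as high as Itgam (CD11b, 122, 112 and 115 FPKM). Itgal, the CD11a chain, had 31.2 ± 1.08 FPKM, and Itgad, the CD11d chain, had 4, 7 and 10 reads. Itgb1, the beta chain of the matrix receptors, had 106, 100.4 and 104 FPKM. Itga5, which forms the fibronectin receptor with it, had 33.1 ± 1.04 FPKM.

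Chemoattractant receptors passed in 11 of 21 cases (52.4%, against 59.7% of protein-coding genes). Ccr1, an inflammatory chemokine receptor, had 147, 141 and 142 FPKM. The complement receptor C3ar1 had 57.4, 49.3 and 52.6 FPKM. Cmklr1, the chemerin receptor, had 26.1 ± 0.85 FPKM. Ccr7, which guides mature dendritic cells to lymph nodes, had 1.75, 2.5 and 2.62 FPKM. The formyl peptide receptors were lower in library 1 than in the others. Fpr1 had 2.92, 6.36 and 6.22 FPKM, and Fpr2 had 5.07, 8.56 and 8.35 FPKM. Ackr3, a scavenging chemokine receptor, was listed at 0.

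**Figure D3:**
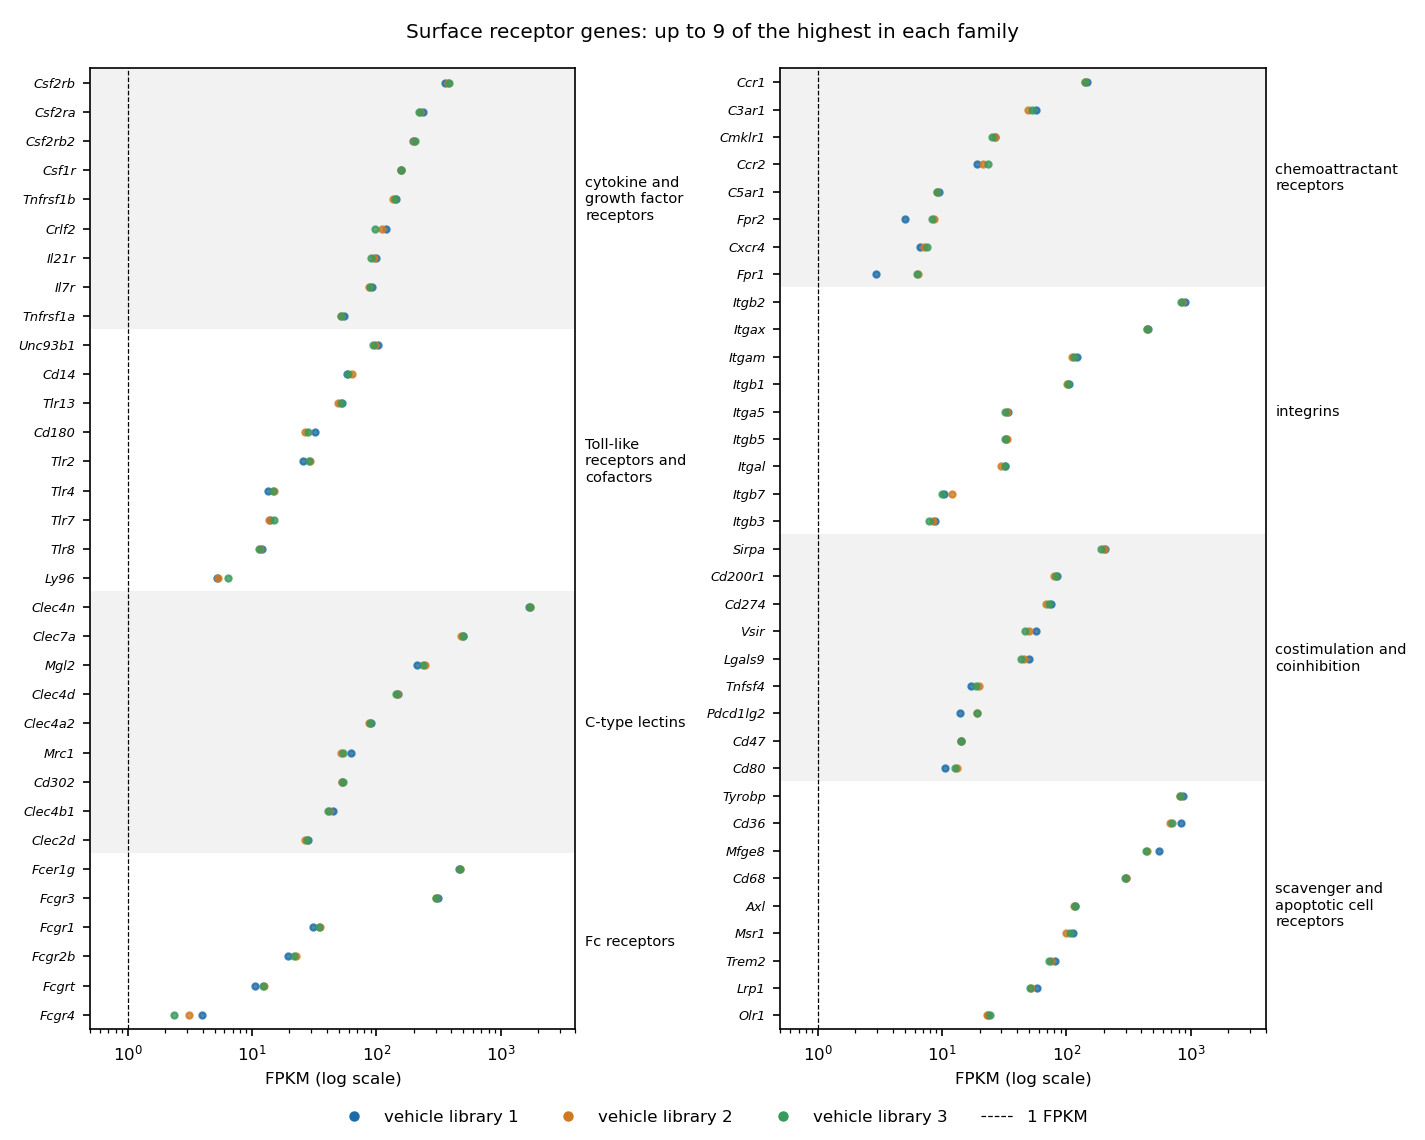
FPKM of up to 9 of the genes of highest mean in each of 8 surface receptor families, 1 point per vehicle library on a logarithmic axis, with a dashed line at 1 FPKM. The libraries overlap closely for most genes, and Fpr1 and Fpr2 show the library 1 point apart on the left.

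Scavenger and apoptotic cell receptors passed in 16 of 18 cases. Tyrobp, the adaptor also known as DAP12, had 860.5, 817 and 815 FPKM. Trem2, a lipid receptor that signals through it, had 81.7, 75.6 and 73 FPKM. Cd36, a receptor for fatty acids and oxidized lipoprotein, had 838, 687 and 707 FPKM. Mfge8, a bridge to dying cells, had 560.2, 449 and 439 FPKM. Library 1 was the highest in all 4 of these genes. Axl, a receptor kinase for dying cells, had 118, 115 and 117 FPKM and stood above its relatives Mertk (23.3 FPKM) and Tyro3 (3.64 FPKM), with no overlap between the 3 genes. Gas6, the ligand of these kinases, had 7.82, 3.76 and 4.4 FPKM. Marco, a receptor for particles and bacteria, had 7.9, 26.5 and 25.4 FPKM. Of the members on this list, Marco and Gas6 were the genes in which library 1 lay farthest from the others, in opposite directions. Immunoglobulin-like receptors passed in 14 of 18 cases, with Cd300ld at 76.2 ± 2.29, the inhibitory receptor Lilrb4a at 76 ± 3.33 and Pirb at 54 ± 1.1 FPKM.

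Costimulatory and inhibitory surface genes passed in 15 of 17 cases, and inhibitory ones held the top ranks after Sirpa. Cd200r1, an inhibitory receptor, had 84.1, 79.6 and 82.4 FPKM. Cd274, which encodes PD-L1, had 74.8, 68.2 and 72.2 FPKM. Vsir, a relative of it, had 57.3, 49.9 and 46.8 FPKM. The B7 genes that give T cells their second signal were lower. Cd80 had 10.6, 13.1 and 12.7 FPKM, and Cd86 had 8.14, 8.79 and 10.5 FPKM. Cd274 was 5.98 ± 0.969 times as high as Cd80 and 7.95 ± 1.16 times as high as Cd86. Pdcd1lg2, which encodes PD-L2, had 13.9, 19 and 19.1 FPKM, lowest in library 1. Cd40, the receptor of T cell help, lay across the threshold at 0.987, 1.24 and 1.52 FPKM, and Cd70 had 1 read in library 2.

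MHC class II genes were high. Of 17 genes of the pathway, proteases included, 16 passed, with a median of 115 FPKM, and together they held 3.36 ± 0.0548% of all FPKM. Cd74, the invariant chain that guards the peptide groove, had 3902, 4264 and 4180.4 FPKM. The E beta chain gene H2-Eb1 had 1084, 1118 and 1095 FPKM, and the A beta chain gene H2-Ab1 had 982, 1035 and 990.4 FPKM. H2-Aa, its partner, had 745, 779 and 775 FPKM. Cd74 was 4.11 ± 0.125 times as high as H2-Ab1. The chains of the peptide editor were next, with H2-DMb1 at 254, 239 and 234 FPKM and H2-DMa at 178 ± 6.69 FPKM. Their antagonists were far lower, H2-Oa at 3.13 ± 0.555 and H2-Ob at 3.41 ± 0.536 FPKM. Ciita, the coactivator without which class II genes are silent, had 14.5, 16.7 and 16.1 FPKM. The promoter-binding partners Rfxap (6.11 ± 0.676 FPKM), Rfxank (2.15 ± 0.24 FPKM) and Rfx5 (1.25 ± 0.139 FPKM) were lower still. H2-Eb2, a second E beta gene, had 0.273, 0.754 and 0.499 FPKM and was below the threshold. The proteases that trim the invariant chain differed, with Ctss at 3188 ± 187 and Lgmn at 123 ± 5.33 FPKM.

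Class II promoters are known to hold an inverted CCAAT element. The 120 bases before 3 class II genes that differ in level are shown to let it be seen, with the letters TGATTGG in capitals. They are RefSeq promoters on GRCm38.p6, printed 5′ to 3′ on the gene's strand: H2-Eb1 at chr17:34305747-34305866 on the plus strand, H2-Aa at chr17:34287824-34287943 on the minus strand and H2-DMb1 at chr17:34153071-34153190 on the plus strand.
H2-Eb1: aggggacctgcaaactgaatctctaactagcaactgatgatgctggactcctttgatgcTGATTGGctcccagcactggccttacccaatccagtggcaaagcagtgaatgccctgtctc
H2-Aa: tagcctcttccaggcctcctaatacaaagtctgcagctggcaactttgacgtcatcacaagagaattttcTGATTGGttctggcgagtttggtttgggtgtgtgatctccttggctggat
H2-DMb1: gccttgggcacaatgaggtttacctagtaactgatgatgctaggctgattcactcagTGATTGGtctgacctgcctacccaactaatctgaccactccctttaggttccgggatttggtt
The motif ended 54, 43 and 56 bases before the start in H2-Eb1, H2-Aa and H2-DMb1. TGATTGG was searched on both strands in the 250 bases before the start. It was present in 7 of 8 class II chain genes with an entry and in 8 of 13 genes of the pathway. Among all 27025 promoters the share was 7.65%, and among the 12120 of protein-coding genes with a value it was 9.64%. The motif was picked after the sequences had been seen. The 7 chain genes that held it ranged from 0.508 FPKM in H2-Eb2 to 1099 FPKM in H2-Eb1, so holding these letters went with no single level.

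The class I pathway passed in 15 of 15 cases. B2m, the light chain, had 2287, 2084 and 2057 FPKM. The heavy chain gene H2-D1 had 598, 536 and 537 FPKM, and H2-K1 had 284, 272 and 261 FPKM. These heavy chains are polymorphic near-copies of each other, which makes their split uncertain. Calr, a chaperone of the heavy chain, had 362, 371 and 358 FPKM. Tapbp (69 ± 2.85 FPKM), which bridges class I to the peptide transporter, was above the transporter chains Tap2 (20.6 ± 0.897 FPKM) and Tap1 (12.8 ± 0.354 FPKM). Nlrc5, the class I coactivator, had 3.56 ± 0.258 FPKM.

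Chemokines made up the top of the secreted signals. Of 33 cytokine and chemokine genes 23 passed, and together the list held 3.31 ± 0.0271% of all FPKM. After Ccl6 and Ccl17 came Ccl9, a relative of Ccl6, at 897, 859 and 865 FPKM. Ccl3, a ligand of Ccr1, had 877, 768 and 767 FPKM. Ccl2, the ligand of Ccr2, had 604, 596 and 604 FPKM. Ccl4, a relative of Ccl3, had 432, 443 and 435 FPKM. Ccl17 was 20.2, 14.5 and 14.6 times as high as Ccl22 in the 3 libraries. Il1rn, the interleukin 1 receptor antagonist, had 198, 199 and 199 FPKM. It was 24.6 ± 1.94 times as high as Il1b (7.45, 8.12 and 8.74 FPKM). Tgfb1 (116 ± 1.54 FPKM), which restrains inflammation, was above Tnf (47.6 ± 1.04 FPKM). Several cytokines of activated dendritic cells were near the floor. Il6 had 0, 0 and 3 reads and Il23a had 2, 2 and 3. Il10 and Il12a were listed at 0 in the 3 libraries, where 3 reads would give 0.116 and 0.089 FPKM. Il12b, the p40 chain, had 0.485, 0.615 and 0.268 FPKM.

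Of 23 other secreted proteins 20 passed, and these 23 genes held 11.8 ± 0.331% of all FPKM, led by Lyz2, Spp1 and Psap. Gpnmb, a glycoprotein of lipid-laden macrophages, had 1391, 1321 and 1321 FPKM. Cst3, an inhibitor of cathepsins, had 1100.3, 1282 and 1222 FPKM, lowest in library 1. The complement chain gene C1qb had 325, 269 and 256 FPKM. Its partners C1qa and C1qc had means of 139 and 101 FPKM, and all 3 chains were highest in library 1. Apoe, the lipid carrier of macrophages, had 54.1, 19.3 and 19.7 FPKM and was the gene of the list that varied most among the members. Fn1, the fibronectin gene, had 39.8 ± 0.344 FPKM. Retnla, a marker of alternative activation, was below the threshold at 0.358 ± 0.212 FPKM, and Sparc was listed at 0.

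Of 14 maturation genes 11 passed, and these 11 had a median of 7.43 FPKM, beside 6.52 FPKM over all members. Over all 14 the median was 5.20 FPKM. Fscn1, the actin bundler of mature dendrites, had 2.23, 4.1 and 4.18 FPKM. Cd83, a surface marker of mature cells, had 4.57, 5.37 and 5.05 FPKM. Relb, a factor of the maturation programme, had 5.41 ± 0.178 FPKM, and Il4i1 rested on 2, 0 and 1 reads. Interferon response genes passed in 17 of 22 cases, with a median of 4.01 FPKM over these 17 and 2.57 FPKM over all 22. After Bst2, the antiviral enzyme gene Oas1a had 20.1 ± 0.561, Mx1 14.3 ± 0.678 and Isg15 7.25 ± 0.536 FPKM. Ifnb1, an interferon itself, had 5, 0 and 0 reads. Immediate early genes, which react quickly to stress or handling, passed in 15 of 17 cases. Atf3 had 199, 185 and 189 FPKM, and Junb had 82.4, 81 and 77.1 FPKM. Egr2, a factor that macrophages keep, had 66.2, 66.2 and 66.4 FPKM. Fos (15.8 ± 2.24 FPKM) and Egr1 (4.52 ± 0.625 FPKM), the usual signs of acute stimulation, were lower, and Fosb had 5, 17 and 13 reads.

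Cell cycle genes all passed (28 of 28). The inhibitor gene Cdkn1a was the highest at 139, 138 and 138 FPKM. Pcna, the replication clamp, followed at 109.8, 99.2 and 98.5 FPKM. Mki67, the usual marker of proliferation, had 9.06, 10.5 and 11.3 FPKM. Top2a (13.4 ± 0.952 FPKM) and Cdk1 (7.33 ± 0.335 FPKM), of the late phases of the cycle, were of the same order. Xist, the transcript that silences an X chromosome in female cells, had 25.7, 25.6 and 27.9 FPKM.

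Central carbon metabolism was detected almost throughout. Glycolysis genes passed in 20 of 21 cases, with a median of 24.6 FPKM. Pkm, the enzyme of the last step, had 391, 369.6 and 366 FPKM. Pgam1, of the lower part of the pathway, had 259, 256 and 268 FPKM. Ldha, which makes lactate, had 246, 258 and 259 FPKM and was 12.5 ± 1.27 times as high as Ldhb. Pgk1 (230.0 ± 4.36 FPKM) and Eno1 (201 ± 4.34 FPKM) followed. Hk3, the hexokinase of myeloid cells, had 122, 113 and 116 FPKM and was 13.4 ± 0.861 times as high as Hk1. Hk2, the inducible hexokinase, had 20.3 ± 0.14 FPKM. Of the glucose transporters, Slc2a1 had 58.5, 55.9 and 56.7 FPKM, and Slc2a3 missed the threshold at 0.70, 1.01 and 0.456 FPKM. Gapdh was listed at 2.98, 9.43 and 2.86 FPKM, a value that is uncertain because the gene has many processed copies. The pentose phosphate pathway, a source of NADPH, passed in 7 of 7 cases, with Taldo1 at 213 ± 8.8 and its entry enzyme G6pdx at 64.2 ± 1.06 FPKM.

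The TCA cycle passed in 23 of 23 cases with a median of 22.3 FPKM. Sdhd, a subunit of succinate dehydrogenase, was the highest at 105, 103 and 115 FPKM, and Mdh1, a malate dehydrogenase, had 55.3 ± 2.06 FPKM. Nuclear genes of the respiratory chain passed in 79 of 82 cases with a median of 37.3 FPKM. Cox8a, a small subunit of cytochrome oxidase, had 392, 428 and 374 FPKM. Atp5a1, of the ATP synthase, had 186, 186 and 186 FPKM, with the second lowest CV among the genes with a mean of 5 FPKM or more. Cox4i2, Cox6a2 and Ndufb2 were below the threshold, and the first 2 are isoforms of lung and muscle. The mitochondrial genome passed in 28 of 34 cases. Its gene mt-Co1 had 6691, 5949 and 6117 FPKM, highest in library 1, and mt-Nd4 had 1025 ± 40.9 FPKM. The coding genes mt-Atp6 and mt-Nd4l were far lower, at 24.4 ± 4.54 and 7.74 ± 1.75 FPKM, and the reason was not tested. The short transfer RNA genes mt-Tg, mt-Tk and mt-Tr were listed at 0.

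All 12 genes of lipid efflux and storage passed. Lpl, the lipase that frees fatty acids from lipoproteins, had 647, 582 and 598 FPKM. Fabp5, a fatty acid carrier, had 191, 164 and 163 FPKM. Plin2, which coats lipid droplets, had 87.8, 79.8 and 79.9 FPKM. In these 3 genes library 1 was the highest. Among the cholesterol exporters, Abcg1 (77.2 ± 3.42 FPKM) was above Abca1 (7.79 ± 0.898 FPKM). Fatty acid oxidation genes passed in 15 of 16 cases with a median of 12.2 FPKM, led by Acadl (39.3 ± 0.518 FPKM). The entry enzyme Cpt1a had 19.4, 20.9 and 19.5 FPKM, and its muscle form Cpt1b had 1, 1 and 6 reads. Fatty acid synthesis passed in 11 of 12 cases. The desaturase Scd2 had 71.4, 65.8 and 65.8 FPKM. Its relative Scd1 had 2.11, 1.45 and 1.16 FPKM, so the ratio of the pair was 33.9, 45.4 and 56.8. Genes of cholesterol synthesis and uptake passed in 16 of 17 cases with a median of 13.6 FPKM, and Mvd, an enzyme of the mevalonate steps, had 27.6 ± 0.227 FPKM. The single gene below the threshold was Fdps, at 0.363 ± 0.148 FPKM.

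**Figure D4:**
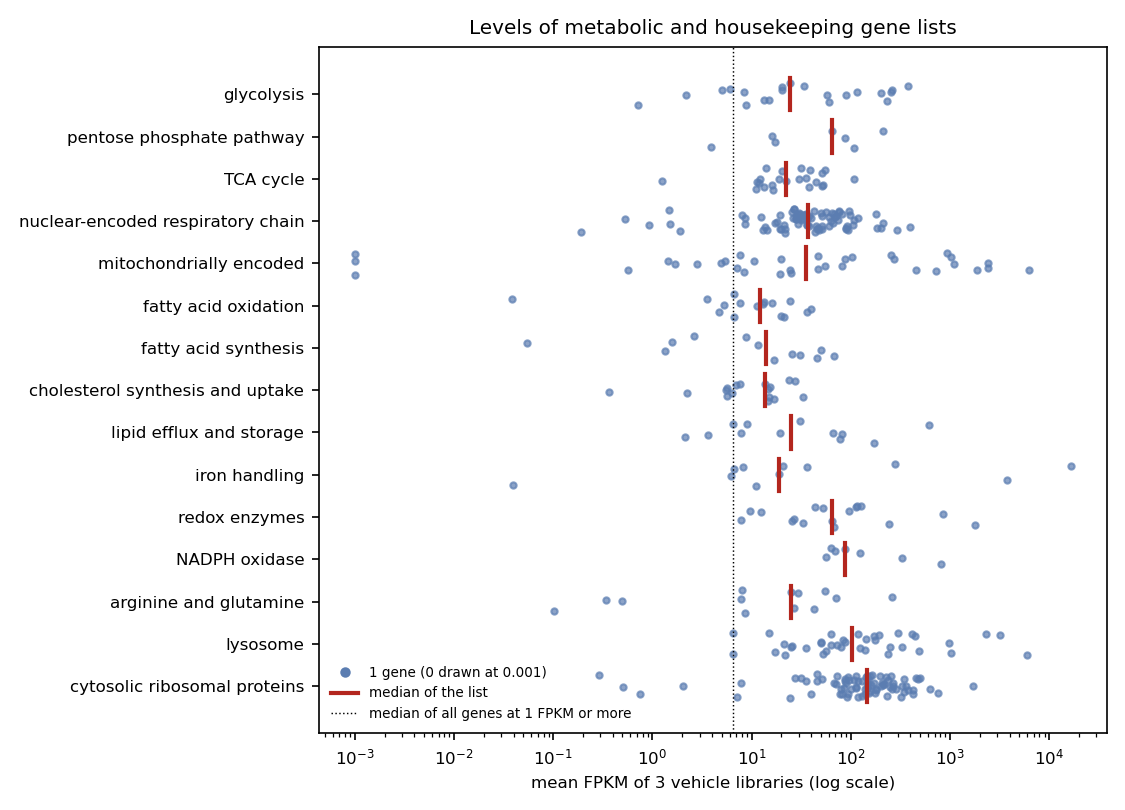
Mean FPKM over the 3 vehicle libraries of each gene (points) in 15 metabolic and housekeeping lists on a logarithmic axis, with the median of each list (bar) and the median of all members, 6.52 FPKM (dotted line). Every list median lies right of the dotted line, and those of the lysosome and the ribosome lie above 100 FPKM.

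Iron, redox and oxidase genes passed nearly throughout. Ftl1, the ferritin light chain, had 3912, 3757 and 3699 FPKM, and Fth1 was 4.40 ± 0.0828 times as high. Hmox1, which breaks down haem, had 276, 279 and 281 FPKM. The transferrin receptor Tfrc had 20.7 ± 0.541 FPKM and the iron exporter Slc40a1 6.64 ± 0.242 FPKM. All 17 redox enzymes and regulators passed. Prdx1, a peroxidase, had 1824, 1779 and 1713 FPKM. Gpx1, the glutathione peroxidase, had 872, 839 and 818 FPKM. Nfe2l2, the regulator of such genes, had 116 ± 5.41 FPKM. The NADPH oxidase, which makes superoxide in phagosomes, passed in 7 of 7 cases. Its membrane chain Cyba had 811, 815 and 805 FPKM, and the other, Cybb, had 330.0, 322 and 329 FPKM. The cytosolic subunits Ncf1 and Ncf4 lay close together, at 69.6 ± 0.59 and 62.6 ± 2.36 FPKM. Their list had a median CV of 0.848%, the lowest of the lists with a passing gene. Of the arginine and glutamine genes, Ass1, which remakes arginine from citrulline, had 252, 263 and 268 FPKM, and Odc1, of polyamine synthesis, had 43.1 ± 1.71 FPKM. The arginase gene Arg1 (0.341 ± 0.134 FPKM) and the nitric oxide synthase gene Nos2 (0.101 ± 0.0319 FPKM) were below the threshold.

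The lysosome list passed in 38 of 38 cases with a median of 103 FPKM and held 5.51 ± 0.115% of all FPKM. After Psap and Ctss, the protease gene Ctsd had 2375, 2287 and 2221 FPKM. Ctsb, another cathepsin, had 1115, 986 and 989 FPKM. Lipa, the acid lipase, had 481, 418 and 437 FPKM. The membrane protein Lamp1 had 418 ± 10.9 FPKM. Cytoskeleton genes passed in 27 of 27 cases, with the intermediate filament gene Vim at 607 ± 6.17 and the actin-severing gene Cfl1 at 505 ± 5.77 FPKM. Cytosolic ribosomal protein genes passed in 79 of 82 cases with a median of 145 FPKM, led by Rplp1 (1701 ± 16.6 FPKM). Many of them have processed copies, which makes single values such as Rpl24 (0.291 ± 0.257 FPKM) and Rps10 (0.747 ± 0.112 FPKM) uncertain. The elongation factor Eef1a1 had 1394 ± 34.8 FPKM. Among long noncoding RNAs, Neat1 had 30.4 ± 2.04, Malat1 28.4 ± 0.939 and Mir142hg, the host of a blood cell miRNA, 21 ± 2.14 FPKM.

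The libraries differed little for most genes. The median CV of the 10066 genes was 5.42%, and 90% of the genes lay between 1.3% and 19.5%. In 7908 genes (78.6%) the CV was below 10%, and in 158 (1.57%) it was above 30%. Across genes, Pearson's r of log2(FPKM + 1) was 0.9946 for libraries 1 and 2, 0.9941 for 1 and 3, and 0.9954 for 2 and 3 (10066 genes, which are not independent replicates). For 9239 genes with at least 100 reads the median CV was 5.07%, against 3.90% for counting error alone. The spread beyond counting error was 3.22% by the median over genes and 6.65% by the root mean square. With 3 libraries a median of CVs tends to lie below the true spread, so the median figures understate the excess over counting error. Among the 5986 genes with a mean of 5 FPKM or more, the lowest CVs were those of Zc3hav1 (20.3 FPKM), an antiviral zinc finger gene, Atp5a1 (186 FPKM), a chain of the mitochondrial ATP synthase, and Trp53inp2 (14.5 FPKM), followed by Ankhd1, Prkcd, Cers6, Nup205, Gpd2, Frg1 and Rdx. All 10 are protein coding, and their CV of 0.0430% to 0.183% lies below what counting error gives, since they were picked as the lowest.

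Noncoding classes took a larger share of the most variable genes than of all genes. Among 5986 genes with a mean of 5 FPKM or more, the 100 of largest CV held 42 protein-coding genes, 30 processed pseudogenes, 11 miRNA genes and 8 mitochondrial tRNA genes, although these classes made up 94.7%, 3.29%, 0.217% and 0.217% of the 5986. The median CV was 5.18% for protein-coding members, 14.7% for processed pseudogenes, 38.2% for miRNA genes and 34.1% for mitochondrial tRNA genes. Rpl30-ps10, a copy of a ribosomal protein gene, had the largest CV, with 59.2, 26.5 and 7.73 FPKM (409, 182 and 56 reads). Next came mt-Tq (6, 14 and 3 reads), Gapdh, Gm12191 (109.8, 53.5 and 23.5 FPKM), Mir142b (25, 7 and 12 reads), Gm10076 (26, 77.4 and 29.8 FPKM), Apoe, Gm8325 (3.79, 5.54 and 12.2 FPKM), Gm12751 (41.6, 39.6 and 8.67 FPKM) and Gm8186 (18.5, 8.49 and 5.71 FPKM). Gm10123, a processed pseudogene picked after its values were seen, varied although it had 7042, 6789 and 3019 reads. Gapdh was high in library 2 alone, whereas Apoe was high in library 1 alone. Low read numbers, short genes and near-identical copies are all frequent among these genes, and their part in the spread was not tested.

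**Figure D5:**
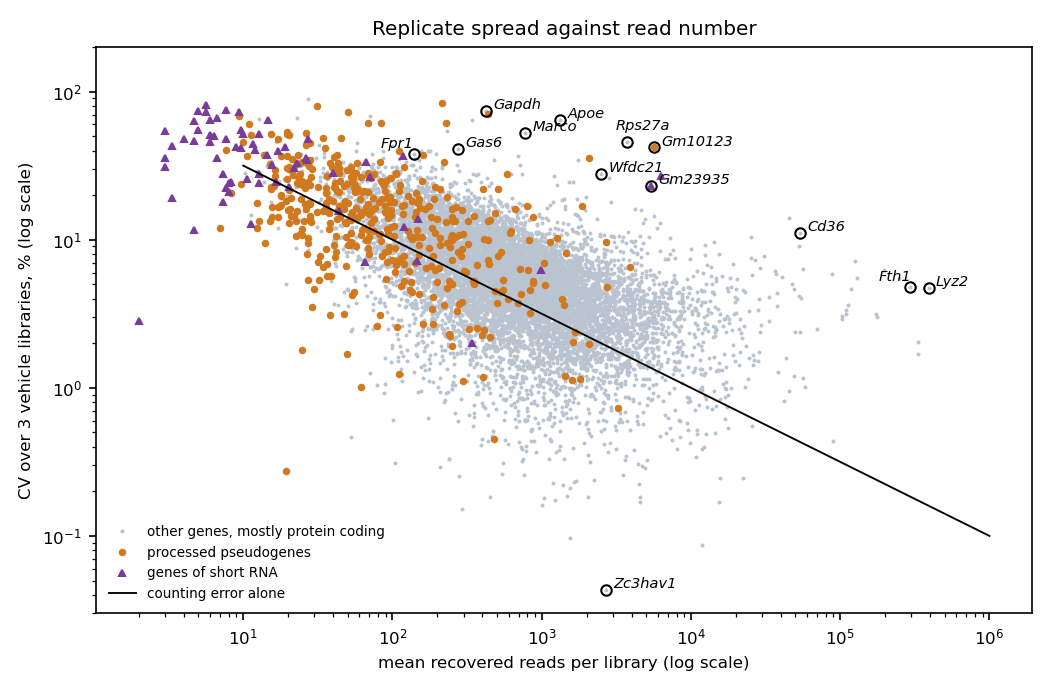
CV over the 3 vehicle libraries against mean recovered reads per library for each member (both axes logarithmic), with processed pseudogenes and genes of short RNA coloured and the counting error drawn as a line. The CV falls with the number of reads, most pseudogenes and short RNA genes lie at low reads, genes with the most reads lie above the line, and Apoe, Marco, Gapdh and Rps27a stand far above it.

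Among the protein-coding genes that varied most, library 1 was most often the one apart. Of 50 protein-coding members with a CV above 20% and a mean of 5 FPKM or more, library 1 was the farthest from the others in 35 (70%), library 3 in 11 and library 2 in 4. Apoe had 2306, 820 and 879 reads and was 1.47 higher on the log2 scale in library 1 than the mean of the others. Gas6, the lipid transfer protein gene Pltp (30.6, 19.9 and 19.4 FPKM) and the secreted peroxidase gene Gpx3 (26.8, 17.3 and 14.9 FPKM) were also higher in it. Marco (303, 1010 and 1021 reads), Fpr1, Fpr2, Nr4a3 (3.29, 6.53 and 7.24 FPKM), Car4 (7.25, 13.6 and 15 FPKM), Cck (18.9, 32.7 and 31.7 FPKM), Mcemp1 (6.22, 10.4 and 11.2 FPKM) and Wfdc21 (195, 347 and 309.9 FPKM) were lower in it. Pltp, Gpx3, Nr4a3, Car4, Cck, Mcemp1 and Wfdc21 were picked after their values were seen. Some variable genes, such as Rps27a (143, 70.3 and 66.7 FPKM) and Rpl17 (67.4, 131 and 137 FPKM), encode ribosomal proteins with many copies, and reads may be exchanged with these.

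By list, the differences of library 1 from the mean of the others were small. Over all 10066 members library 1 was the higher in 50.1% and the lower in 49.9% as deposited, with a median log2 ratio of 0.00025, and when the libraries were brought to 1 sum of FPKM it was the higher in 41.8% and the lower in 58.2%. The 11 maturation genes at the threshold were lower in library 1 in 11 of 11 cases (median log2 ratio -0.24), among them Ccl22, Fscn1 and Ccr7. Lipid efflux and storage genes were higher in 11 of 12 cases (0.14). Cell cycle genes were lower in 23 of 28 cases (-0.11) and ribosomal protein genes in 65 of 79 (-0.06). Mitochondrially encoded genes were higher in 22 of 28 (0.12). At 1 sum, these counts were 11 of 11, 11 of 12, 24 of 28, 71 of 79 and 22 of 28. Of the 28 mitochondrially encoded genes 14 were tRNA genes, with a median length of 68 bases and a median CV of 34.1%. Some of these rest on few reads, such as mt-Tq on 6, 14 and 3, so their direction is uncertain. For the lysosome 27 of 38 genes were higher as deposited and 20 of 38 at 1 sum. Of the monocyte genes at the threshold 4 of 5 were lower in library 1 as deposited (median log2 ratio -0.35) and 5 of 5 at 1 sum, the list summing to 182, 225 and 226 FPKM. These lists were named with their values known, and none of the counts was tested. The sums of the macrophage list, 16372, 15172 and 15152 FPKM, are set largely by Lyz2. The part of these cell types in the differences of library 1 was not tested.

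Promoters of the members held more CpG than those of genes below the threshold. RefSeq promoters (the 250 bases before the start, GRCm38.p6, the first entry of each gene) were matched by symbol for 7624 of the 10066 members. The median ratio of observed to expected CpG was 0.757 for 7507 protein-coding members and 0.470 for 4613 protein-coding genes below the threshold. The letters GGGCGG, on either strand, were present in 61.5% and 43.1% of these. Among all 12120 protein-coding genes with a value and a promoter the share was 54.5%, and among all 27025 promoters it was 32.9%. TATAAA was present in 5.85% of the members and 10.5% of the genes below the threshold. It was present in 11.4% of the 281 genes at 100 FPKM or more. Of the cytokine and chemokine list, taken whatever the level of its genes, 9 of the 23 promoters with an entry held it (39.1%). The share was 7.61% over the 12120 protein-coding genes, the group these were drawn from, and 13% over all promoters. These are counts of letters in a window and describe no factor.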

How the data were processed

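RNA of dendritic cells grown from mouse bone marrow was extracted with a NucleoSpin miRNA kit, and 1 µg of total RNA went into NEBNext Ultra II libraries, per the labels' protocols. The submitters' processing notes name CASAVA, STAR 2.5, HTSeq, edgeR 3.16.5 and DESeq2, with the builds mm10 and hg19, without saying how each was used. The authors deposited 2 tables of 23398 genes, identical in all 140388 values. Their unit is not named, and the values were read as FPKM deposited by the authors, because with merged exon lengths of GENCODE M21 about 96.0% of the values above 0 became whole reads (within 0.01). For 553 members the smallest length that gave whole reads in every library was used instead. The recovery read the lengths from all 6 libraries, and no value of the nanoparticle libraries is otherwise used.

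The 10066 members have at least 1 FPKM in the 3 vehicle libraries. The members and the 53 gene lists were chosen with earlier results of these data known. With 1 group there is no comparison between conditions and no test. Levels, shares and CV were computed on FPKM as deposited, and correlations on log2(FPKM + 1). Reads recovered numbered 17281945 to 18218550 per library. A value on 3 reads or fewer was taken as the floor, which covers counting error only. Of 906 symbols on the lists, 21 had no row and are not analysed here, and Aldoa was left out because 2 genes share its symbol. Some genes of the lists count in the totals but are not reported here by name. Genes were named by rule: the 20 most abundant, the genes of the lists, first the highest and, for cell types, those listed at 0, the 10 largest and 10 smallest CV at a mean of 5 FPKM or more, and the genes next to the threshold. The gene IDs matched GENCODE M21 (GRCm38) for 23388 genes. How reads that match several genes were counted, the strand setting and the way ribosomal RNA was removed are not given in the sources used here, so values of near-identical or overlapping genes are uncertain. Python 3.11.15, numpy 2.4.6, pandas 2.3.3 and matplotlib 3.10.9 were used.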

Additional observations from a re-analysis of the deposited data

How the results depend on the processing

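No paired analysis was possible because a single group is described and the replicate numbers join no samples across groups. The number of genes depended on the threshold: 5712 reached 5 FPKM in the 3 vehicle libraries and 15779 lay above 0, while leaving out 1 library gave 10182 to 10196. The share of the 10 most abundant genes was 23.03% without mitochondrially encoded genes and 13.6% as a share of recovered reads with the genes ranked by reads, and 22.5% to 22.8% without 1 library. The number of genes that hold 50% of the sum was 149 without mitochondrially encoded genes, 436 by reads, 130.0 over all genes of the table and 131 without genes shorter than 100 bases, an alternative chosen after seeing the data, with 124 to 128 without 1 library. The median CV was 8.78% with no threshold, 4.24% at 5 FPKM and 3.95% to 4.76% without 1 library, lowest without library 1. A CV from 2 libraries has a lower median than one from 3 at the same spread. The values without 1 library can therefore be set beside each other but not beside that of 3 libraries. The median SD of log2(FPKM + 1) was 0.0656. The mean correlation was 0.9933 with a pseudocount of 0.1, and 0.9941 to 0.9954 over the pairs left without 1 library. Counts of list members differed by at most 1.5 times from those given in 186 of 212 cases under other thresholds. Values below about 3 reads are at the floor, and with 3 libraries the SD of a single gene is itself imprecise.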
